A study of Mus musculus with 6 samples.

Results

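Activating transcription factor 4 (ATF4) is the central transcription factor of the integrated stress response. In this response any of several kinases phosphorylates the translation initiation factor eIF2, bulk protein synthesis falls and translation of the Atf4 mRNA rises, so that Atf4 mRNA alone does not report ATF4 activity. ATF4 then pairs with C/EBP proteins and other leucine zipper factors to switch on genes for amino acid supply, for further stress transcription factors and for feedback inhibitors. The response is known in liver for its part in amino acid shortage and endoplasmic reticulum (ER) stress, and mTORC1, the growth kinase complex at the centre of the study, also raises ATF4.

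The genes described here are Atf4, Atf3, Atf5, Ddit3, Trib3, Chac1, Asns, Ppp1r15a and Cebpb, taken by name as known genes of this response. These 9 symbols matched 9 of the 53465 gene rows of the count table, and all 9 passed the filter on low counts. A further entry of the list, which marks the lipoprotein receptor gene Vldlr as left out, matched no row.

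RNA sequencing was performed on 6 primary liver cancer cell lines of C57BL/6 mice, 3 in each group. The sources used here call the lines independent and do not say whether any came from the same mouse. The tumours were induced in adult female mice by hydrodynamic tail vein injection of a Myc transposon, driven by the EF1a promoter, together with a plasmid for Cas9 and a guide RNA. The guide was directed against Kdm6a (also called Utx) in Myc;sgKdm6a lines 2A, 2B and 2D and against another gene in comparison lines 1, 2 and 3. All 6 lines therefore carry the Myc transgene, no line received Myc alone, and a difference between the groups cannot be told apart from the effect of the guide used in the comparison lines. The lines were grown from dissociated tumours and kept in culture until no other cells could be seen.

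Total counts ranged from 4656103 to 6937497 per line. Kdm6a itself had 39.7, 45.7 and 49.0 CPM (counts scaled to the TMM-adjusted library size) in lines 2A, 2B and 2D and 69.5, 64.5 and 42.5 in comparison lines 1, 2 and 3. The groups overlapped and their log2 ratio was -0.39 (standard error, SE, 0.22; adjusted p = 0.243), so that the mRNA level does not check the label of a line in which the guide alters the coding sequence. Albumin (Alb), which defines hepatocytes, had between 4 and 26 counts in every line, and the keratins Krt8 and Krt18 were high in comparison lines 1 and 3. Log2 fold changes are given as Myc;sgKdm6a over comparison throughout, and an adjusted p is that of the edgeR quasi-likelihood test over all 11510 genes tested, with 0.05 as the threshold.

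The DNA element that carries ATF4 action is a composite site for an ATF4 and C/EBP pair, with the letters TGATGNAA. It was searched on both strands in RefSeq promoters of GRCm38.p6 that run from 250 bases before the transcription start to 50 bases after it. All 9 genes had an entry, and 4 of them (44.4%) held the element, namely Chac1, Atf3, Asns and Trib3. Among all 27025 genes with a promoter entry the share was 4.51%. Of 36 other known ATF4 targets with an entry, 12 (33.3%) held it. The cyclic AMP response element TGACGTCA, a palindromic site for ATF and CREB factors, was found in 1 of the 9, Ppp1r15a, and in 2.03% of all genes with an entry. A match is a run of letters and not a measured binding site, and the absence of a match says only that these letters are not in the window.

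The stretches shown for Chac1, Atf3 and Asns hold the ATF4 and C/EBP element, the sequence feature that part of the gene group shares. The Ppp1r15a stretch holds the cyclic AMP response element, which no other gene of the group held in its window. Capitals mark the matched element, and each run is written 5′ to 3′ on the strand of its gene.
Chac1, chr2:119351032-119351091, plus strand, 210 to 151 bases before the start: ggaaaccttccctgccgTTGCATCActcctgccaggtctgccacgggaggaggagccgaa
Atf3, chr1:191183404-191183463, minus strand, 130 to 71 bases before the start: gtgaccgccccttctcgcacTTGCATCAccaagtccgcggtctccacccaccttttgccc
Asns, chr6:7693217-7693246, minus strand, 37 to 8 bases before the start: gggtcccagccacaTGATGAAActtcccgc
Ppp1r15a, chr7:45526269-45526328, minus strand, 60 to 1 bases before the start: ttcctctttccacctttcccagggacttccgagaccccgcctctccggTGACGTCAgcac
Chac1 and Atf3 hold the same 8 letters, in the orientation opposite to the gene, whereas Asns holds a variant in the orientation of the gene. The Atf3 stretch lies within the span of longer Atf3 transcripts and outside their exons. In the GENCODE M21 annotation, which starts Asns further upstream than RefSeq does, the Asns stretch lies within its first exon. The Trib3 match lies 15 bases after the RefSeq start, which is upstream of the gene as counted here, and is not printed.

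None of the 9 genes differed between the groups at the adjusted p. The edgeR test called 0 of 9, against 14.7% of all genes tested (6.99% called higher and 7.69% lower), and DESeq2 called 1, Cebpb. At an unadjusted p under 0.05 there were 4 of 9 (44.4%), against 35% of all genes. The groups did not overlap for the same number, 4 of 9, against 42% of all genes. Both of the latter shares stood close to the background. The direction was mixed, with 5 log2 fold changes above 0 and 4 below it, and the median was 0.26 (all genes -0.01).

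**Figure D1:**
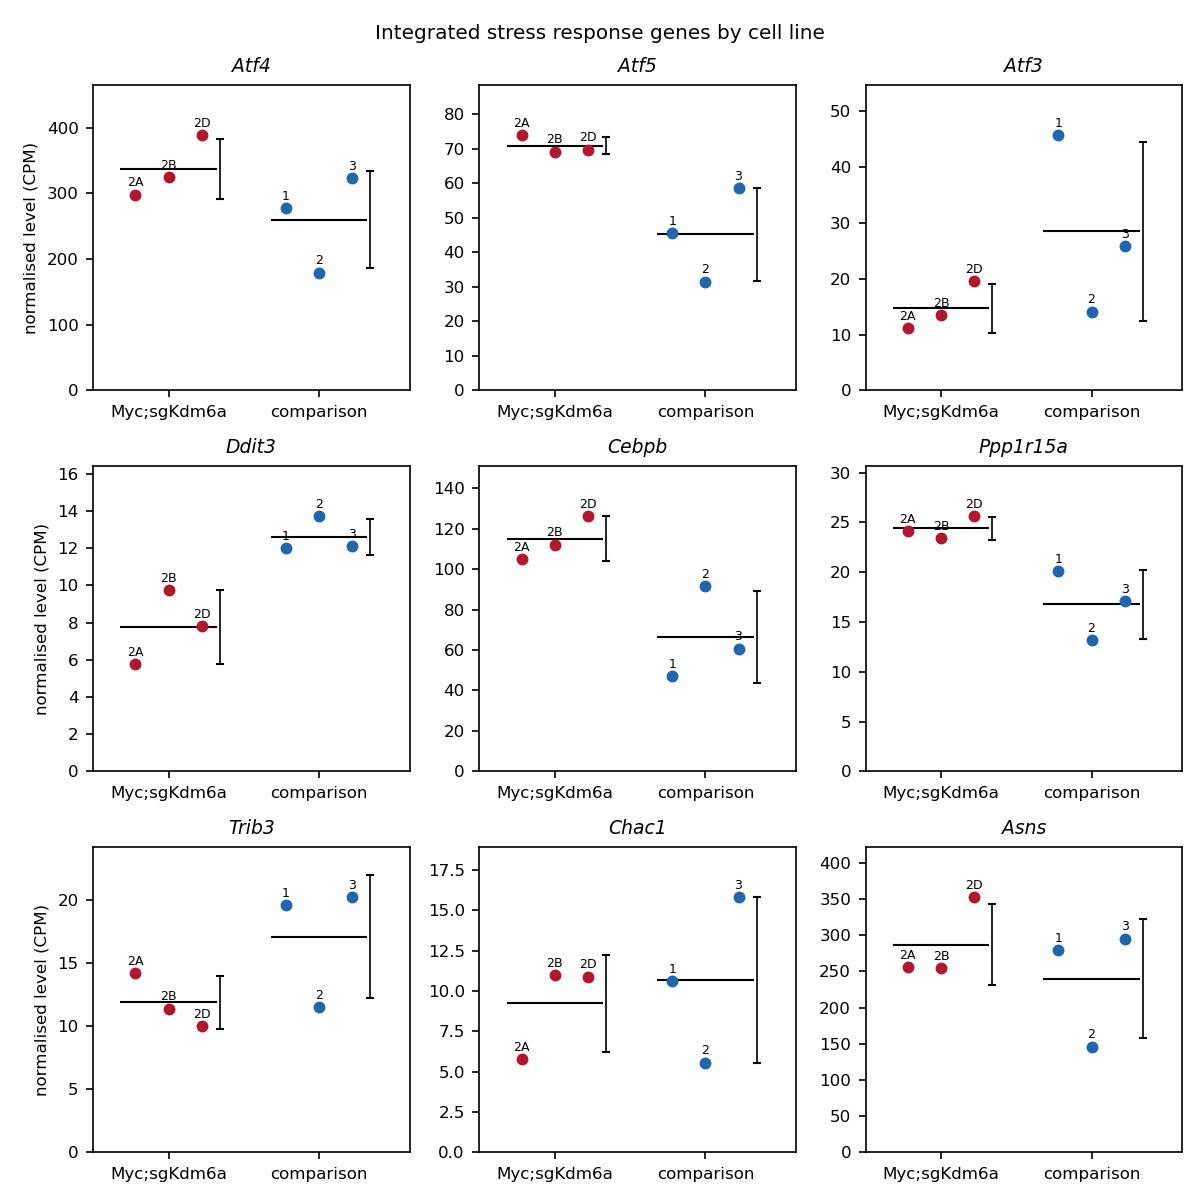
Normalised level (CPM, linear axis from 0) of each gene in each cell line, red for Myc;sgKdm6a and blue for comparison lines, with the group mean as a line and the SD (n = 3) as a bar. Atf5, Ppp1r15a and Cebpb are higher and Ddit3 is lower in each Myc;sgKdm6a line than in each comparison line, and comparison line 2 is the lowest comparison line for 7 of the 9 genes.

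Atf4 (ENSMUSG00000042406, chromosome 15 of GRCm38, 80255184 to 80257540) had 298, 325 and 388 CPM in Myc;sgKdm6a lines 2A, 2B and 2D. It had 277, 179 and 323 CPM in comparison lines 1, 2 and 3. The groups overlapped through comparison line 3, and comparison line 2 was the lowest of all. The log2 fold change was 0.38 (SE 0.23, 95% interval -0.18 to 0.93, adjusted p = 0.29).

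Asns, which encodes asparagine synthetase and is the classical ATF4 target of amino acid shortage (ENSMUSG00000029752, chromosome 6, 7675169 to 7693254), shared its highest and lowest line with Atf4. Its level was 256, 254 and 352 CPM in Myc;sgKdm6a and 279, 146 and 295 CPM in comparison lines 1, 2 and 3. Comparison lines 1 and 3 lay above lines 2A and 2B, unlike for Atf4. Line 2D was again the highest and comparison line 2 the lowest, by 2.02-fold against comparison line 3. The estimated log2 fold change was 0.26 (SE 0.29, 95% interval -0.43 to 0.95, adjusted p = 0.555), and without comparison line 2 it was 0.00 (adjusted p = 0.995).

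The likeness of these 2 patterns was measured as the root mean square difference of log2 CPM over the 6 lines, after each gene was centred on its own mean. Between Atf4 and Asns it was 0.119, which placed Asns at rank 21 among 9484 genes averaging 50 counts or more. Seen from Asns, Atf4 stood at rank 4. The closest genes to Atf4 were 3110082I17Rik (0.056), Mrpl16 (0.076) and Egln1 (0.090). The closest to Asns were Bbip1 (0.069), Las1l (0.104) and Slc7a5 (0.117), the last being a leucine transporter and a known ATF4 target. All of these were lowest in comparison line 2 and did not pass the adjusted p. They were chosen by likeness over the same 6 lines, so these shared traits follow from the choice. The other members stood further off, with Ppp1r15a at rank 253 and Atf5 at rank 284 from Atf4, and Atf3 at rank 7785.

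Atf5, a related factor that is also translated under stress and is linked to the mitochondrial stress response (ENSMUSG00000038539, chromosome 7, 44812256 to 44816658), had 73.8, 69.1 and 69.7 CPM in Myc;sgKdm6a lines. In comparison lines 1, 2 and 3 it had 45.5, 31.5 and 58.5 CPM. The Myc;sgKdm6a lines lay close together and above every comparison line. The difference on the log2 scale was 0.65 (SE 0.23, 95% interval 0.09 to 1.2) with an adjusted p = 0.102, which missed the threshold. The gene shares 4.11% of its exonic bases with Nup62 on the other strand, which was called higher (log2 fold change 0.75, adjusted p = 0.0404). The strand setting of the counting is not given in the sources used here, so the part of Nup62 reads in the Atf5 value was not tested.

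Atf3, a stress-induced repressor and activator downstream of ATF4 (ENSMUSG00000026628, chromosome 1, 191170296 to 191218039), had the widest range over the comparison lines, 3.24-fold. It had 11.2, 13.5 and 19.6 CPM in Myc;sgKdm6a and 45.7, 14.1 and 25.8 CPM in comparison lines 1, 2 and 3. Comparison line 2 fell within the range of the Myc;sgKdm6a lines and the other comparison lines lay above it. The fitted log2 fold change was -0.95 (SE 0.45, 95% interval -2.05 to 0.14, adjusted p = 0.188). It was -1.28 (adjusted p = 0.0618) without comparison line 2 and ranged from -1.28 to -0.45 with each line left out in turn.

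Ddit3 encodes CHOP, the factor that links prolonged stress to cell death (ENSMUSG00000025408, chromosome 10, 127290774 to 127296288). Its level was low, with 29, 52 and 35 counts or 5.78, 9.74 and 7.79 CPM in Myc;sgKdm6a lines and 76, 74 and 85 counts or 12.0, 13.7 and 12.1 CPM in comparison lines. Every Myc;sgKdm6a line was below every comparison line, and the comparison lines agreed within 1.14-fold. The log2 fold change was -0.70 (SE 0.27, 95% interval -1.34 to -0.05) with an adjusted p = 0.123, which missed the threshold. Ddit3 shares 3.97% of its exonic bases with Mars on the other strand.

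Cebpb, a C/EBP partner of ATF4 with a central place in the hepatic acute phase response (ENSMUSG00000056501, chromosome 2, 167688915 to 167690418), had 105, 112 and 126 CPM in Myc;sgKdm6a lines. In comparison lines 1, 2 and 3 it had 47.1, 91.7 and 60.7 CPM. Here comparison line 2 was the highest comparison line, in contrast to Atf4 and Asns, and still lay below every Myc;sgKdm6a line. The estimated log2 fold change was 0.78 (SE 0.25, 95% interval 0.18 to 1.39, adjusted p = 0.0803). Cebpb passed the threshold when comparison line 2 was left out (1.09, SE 0.16, adjusted p = 0.0203) and with DESeq2 (0.79, adjusted p = 0.0309). With each line left out in turn it ranged from 0.58 to 1.09, and with transcript length offsets it was 0.55. Cebpb shares 20.7% of its exonic bases with Tmem189 on the other strand, which had 466 counts in comparison line 2 and 158 to 225 in the other lines. The part of these reads in the Cebpb value was not tested.

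The feedback genes of the response were not called. Ppp1r15a encodes GADD34, which directs a phosphatase to eIF2 and so ends the response (ENSMUSG00000040435, chromosome 7, 45522916 to 45526268). It had 24.1, 23.4 and 25.6 CPM in Myc;sgKdm6a lines and 20.1, 13.2 and 17.1 CPM in comparison lines 1, 2 and 3. The Myc;sgKdm6a lines lay within 1.09-fold of one another and above every comparison line. The difference on the log2 scale was 0.54 (SE 0.21, 95% interval 0.04 to 1.04) with an adjusted p = 0.124, which missed the threshold.

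Trib3, a pseudokinase that restrains ATF4 and CHOP (ENSMUSG00000032715, chromosome 2, 152337422 to 152344032), had 14.2, 11.4 and 10 CPM in Myc;sgKdm6a lines and 19.6, 11.5 and 20.2 CPM in comparison lines 1, 2 and 3. Comparison line 2 again fell among the Myc;sgKdm6a lines, below the other comparison lines. The fitted log2 fold change was -0.53 (SE 0.29, 95% interval -1.23 to 0.18, adjusted p = 0.245).

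Chac1 encodes an enzyme that degrades glutathione (ENSMUSG00000027313, chromosome 2, 119351229 to 119354381) and had the fewest counts. There were 29, 59 and 49 counts in Myc;sgKdm6a lines and 67, 30 and 111 in comparison lines 1, 2 and 3, which gave 5.78, 11.0 and 10.9 CPM against 10.6, 5.56 and 15.8 CPM. The groups overlapped widely. The log2 fold change was -0.21 (SE 0.45, 95% interval -1.30 to 0.88, adjusted p = 0.769), and its sign turned when line 2A (0.06) or comparison line 3 (0.18) was left out. An interval of this width takes in large differences in either direction.

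**Figure D2:**
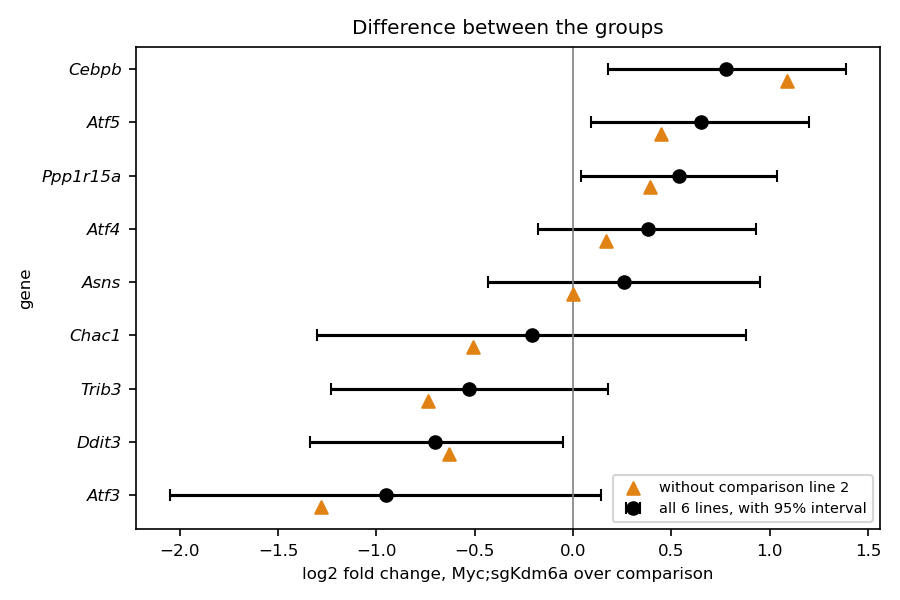
Log2 fold change of each gene between Myc;sgKdm6a and comparison lines, with the 95% interval of the edgeR fit over all 6 lines (black) and the estimate without comparison line 2 (orange triangles). The estimates run from -0.95 for Atf3 to 0.78 for Cebpb, and the interval excludes 0 for Atf5, Ddit3, Cebpb and Ppp1r15a before adjustment.

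In an exact two-sided permutation test of CPM on each gene, the 4 genes with no overlap reached p = 0.1, the smallest that 3 lines against 3 can give. Atf4, Atf3 and Trib3 gave p = 0.2, Asns p = 0.6 and Chac1 p = 1 in the same exact test. This design cannot reach 0.05 gene by gene.

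Levels were compared between genes as CPM per kilobase of transcript, averaged over the 6 lines. Atf4 stood first at 173, followed by Asns at 96.4, Cebpb at 60.2, Atf5 at 29.1 and Atf3 at 10. Below these lay Ppp1r15a at 7.01, Trib3 at 6.82, Chac1 at 6.08 and Ddit3 at 5.95. Atf4 exceeded Asns, Cebpb exceeded Atf5 and Atf5 exceeded Atf3 in 6 of 6 lines each. The lowest places were not separated, since Ppp1r15a exceeded Trib3 and Trib3 exceeded Chac1 in only 3 of 6 lines.

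The comparison lines differed among themselves more than the Myc;sgKdm6a lines did. The SD of log2 CPM was larger over comparison lines for 8 of 9 genes, all but Ddit3, where 63.9% of all genes showed this. The median SD of the 9 genes was 0.24 in Myc;sgKdm6a and 0.44 in comparison lines (all genes 0.20 and 0.27). Comparison line 2 was the lowest comparison line for 7 of 9 genes (77.8%), all but Ddit3 and Cebpb, against 37.3% of all genes. This line was singled out after its values were seen, and no test was made of it.

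The same line was lowest for other ATF4-linked genes. Of 43 known ATF4 targets tested, 31 (72.1%) had their lowest comparison value there. These included 9 of 10 amino acid enzymes but 4 of 8 amino acid transporters. They also included 11 of 13 genes in the list of ATF4-target tRNA synthetases, which holds the tRNA export gene Xpot as well. Of 8 tRNA synthetases not counted among ATF4 targets, 1 was lowest there. The median deviation from each gene's own mean in comparison line 2 was -0.59 (log2 CPM) for the 9 genes, -0.58 for amino acid enzymes and -0.41 for transporters. It was -0.28 for the ATF4-target synthetases with Xpot and -0.10 for the other synthetases. The genes for eIF2 and eIF2B, which are not counted as ATF4 targets, stood at -0.31 and were lowest there in 5 of 9, and the stress and feedback targets stood at -0.42 (7 of 12).

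**Figure D3:**
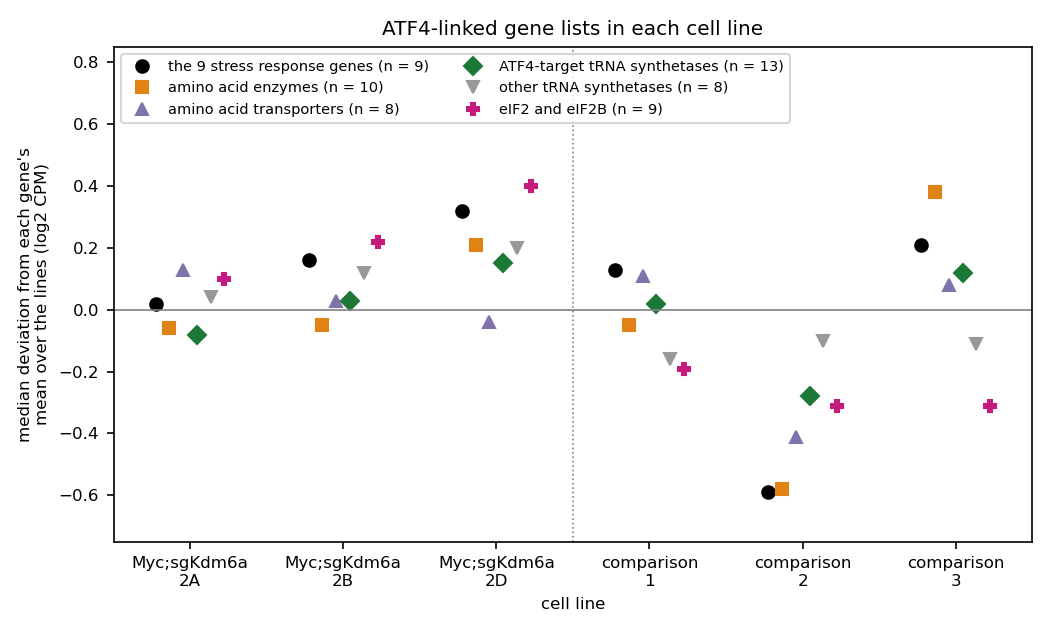
Median deviation of each gene list from each gene's mean over the 6 lines (log2 CPM), by cell line, with the Myc;sgKdm6a lines left and the comparison lines right of the dotted line. In comparison line 2 the 9 genes lie at -0.59, the amino acid enzymes at -0.58 and eIF2 and eIF2B at -0.31. The ATF4-target tRNA synthetases, a list that includes Xpot, lie there at -0.28 and the other tRNA synthetases at -0.10.

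Comparison line 2 also stood apart in its cell type markers. Fibroblast markers summed to 3150 CPM there, against 35.6 and 501 in comparison lines 1 and 3 and 1950 to 2680 in Myc;sgKdm6a lines, and most of this was the collagen gene Col3a1 (2720 CPM). Other fibroblast markers were mixed. Pdgfrb had 177 CPM there against 5.21 and 100 in comparison lines 1 and 3, and Col1a2 had 102 against 2.53 and 65. Dcn went the other way, with 1.67 CPM there against 13.6 and 15.5 in comparison lines 1 and 3. Col1a1 had 144 CPM there, between 3.32 and 236 in comparison lines 1 and 3. Hepatocyte markers, mostly the keratins Krt8 and Krt18, summed to 52.8 CPM there, against 1220 and 829 in the other comparison lines and 2.89 to 94.6 in Myc;sgKdm6a lines. Bile duct and progenitor markers summed to 153 CPM there, against 1380 and 1460 in the other comparison lines and 510 to 1440 in Myc;sgKdm6a lines. Macrophage markers summed to 41.3 to 113 CPM in comparison lines and 2.79 to 6.18 in Myc;sgKdm6a lines. Of the 6 tested, 5 were called lower, where 7.69% of all genes were. These 5 had 0 to 5 counts in each Myc;sgKdm6a line and passed the filter only through the comparison lines. They could not be called higher, so the share of all genes is no measure for them. The count called lower was 0 without line 2A, 2D or comparison line 3 and 1 without line 2B. Those runs called 1, 28, 57 and 38 genes lower over all genes. The count was 3 without comparison line 1 and 6 of 7 without comparison line 2. Requiring 10 counts in every line left 1 of these markers to test, so that setting could not check the calls. Ptprc, which marks all leukocytes, had at most 3 counts in any line, and Clec4f and the stellate cell gene Lrat had 0 in every line. Endothelial markers summed to at most 2.53 CPM. The part of these differences in the values of the 9 genes was not tested. In bulk samples, fewer cells of a type and less RNA per cell cannot be told apart.

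Of the known ATF4 targets, few differed between the groups. From 45 such genes 43 were tested, and 3 were called higher and 0 lower by edgeR. The share called higher was 6.98%, against 6.99% of all genes, and 7.69% of all genes were called lower. At an unadjusted p under 0.05 in that test there were 9 (20.9%), against 35% of all genes. The median log2 fold change was 0.03. DESeq2 called 5 higher, adding the serine enzyme gene Shmt2 and the glutamine transporter gene Slc1a5, and 1 lower, Gpt2. Over all genes it called 1277 higher and 1572 lower, where edgeR called 805 and 885. Amino acid enzymes (0 of 10 called, median 0.16), transporters (0 of 8, median 0.13) and tRNA synthetases with Xpot (0 of 13, median 0.10) had no called member.

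The 3 targets called were Ddit4, Sesn2 and Tnfrsf10b, all known to respond to other stresses too. Ddit4 encodes REDD1, an inhibitor of mTORC1, and had 276, 177 and 186 CPM in Myc;sgKdm6a against 53.1, 74.5 and 54.6 CPM in comparison lines. The estimated log2 fold change was 1.81 (SE 0.23, adjusted p = 0.0154). Sesn2, which inhibits mTORC1 when leucine is scarce, had 86.0, 68.9 and 50.3 CPM against 22, 18.7 and 23 CPM. It rose by 1.69 on the log2 scale (SE 0.23, adjusted p = 0.0164). Tnfrsf10b, a death receptor gene, had 64.0, 70.6 and 55.7 CPM against 21.2, 25.0 and 18.4 CPM. It rose by 1.56 (SE 0.18, adjusted p = 0.0130). These genes did not overlap between the groups, and neither did Map1lc3b of the same list (log2 fold change -0.29, adjusted p = 0.222). Of the 12 genes of that list tested, 4 (33.3%) did not overlap, against 42% of all genes. Nupr1, Gdf15, Stc2 and Vegfa were among those that overlapped. No call among these targets remained without line 2A or without line 2B, and 1 remained without comparison line 3. Those runs called 3, 43 and 63 genes higher over all genes.

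Comparison line 2 had the lowest comparison value for most ATF4 targets, so leaving it out lowers the fold changes of those genes. Without it, 4 of 44 targets tested were called higher, where 836 of 11927 genes were. Called lower were 3 of the 44, where 1118 of all genes were. These were Gpt2, an alanine aminotransferase (log2 fold change -1.62, adjusted p = 0.0172), the arginine transporter gene Slc7a1 (-0.64, adjusted p = 0.0266) and the isoleucyl-tRNA synthetase gene Iars (-0.58, adjusted p = 0.0233). With all 6 lines they had log2 fold changes of -1.24, -0.38 and -0.39, with adjusted p of 0.117, 0.37 and 0.207.

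Upstream of ATF4, none of the 4 eIF2 kinases was called, and none had an unadjusted p under 0.05. Eif2ak3, which encodes the ER stress kinase PERK, had 30.7, 22.1 and 28.3 CPM in Myc;sgKdm6a and 57.7, 20.4 and 40.4 CPM in comparison lines 1, 2 and 3 (log2 fold change -0.55, adjusted p = 0.338). Comparison line 2 was again the lowest of all 6 lines. Eif2ak4 (GCN2, the amino acid sensor) gave -0.30 (adjusted p = 0.249), Eif2ak1 0.23 (0.234) and Eif2ak2 0.01 (0.972).

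Part of the machinery that these kinases act on was called higher in Myc;sgKdm6a lines. All 9 genes for eIF2 subunits, eIF2B subunits and the phosphatase partner Ppp1r15b had log2 fold changes above 0, with a median of 0.51. Of these, 4 (44.4%) were called higher, against 6.99% of all genes, and Eif2s2, Eif2s3x, Eif2b1, Eif2b4 and Ppp1r15b were not called. Eif2b3, a subunit of the exchange factor eIF2B, had 57.0, 64.2 and 77.3 CPM against 36.0, 32.4 and 35.9 CPM. It rose by 0.93 on the log2 scale (SE 0.16, adjusted p = 0.0206). Eif2b2 rose by 0.88 (adjusted p = 0.0188), Eif2b5 by 0.70 (adjusted p = 0.0339) and Eif2s1, the subunit that is phosphorylated, by 0.52 (adjusted p = 0.0340). Ppp1r15b, which holds eIF2 dephosphorylated without stress, gave 0.10 (adjusted p = 0.657). None of the 4 calls remained without line 2A, 2B, 2D or comparison line 3. Those runs called 3, 43, 43 and 63 genes higher over all genes. With each line left out, the log2 fold change ran from 0.82 to 1.04 for Eif2b3 and from 0.79 to 0.95 for Eif2b2. It ran from 0.60 to 0.86 for Eif2b5 and from 0.46 to 0.61 for Eif2s1.

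**Figure D4:**
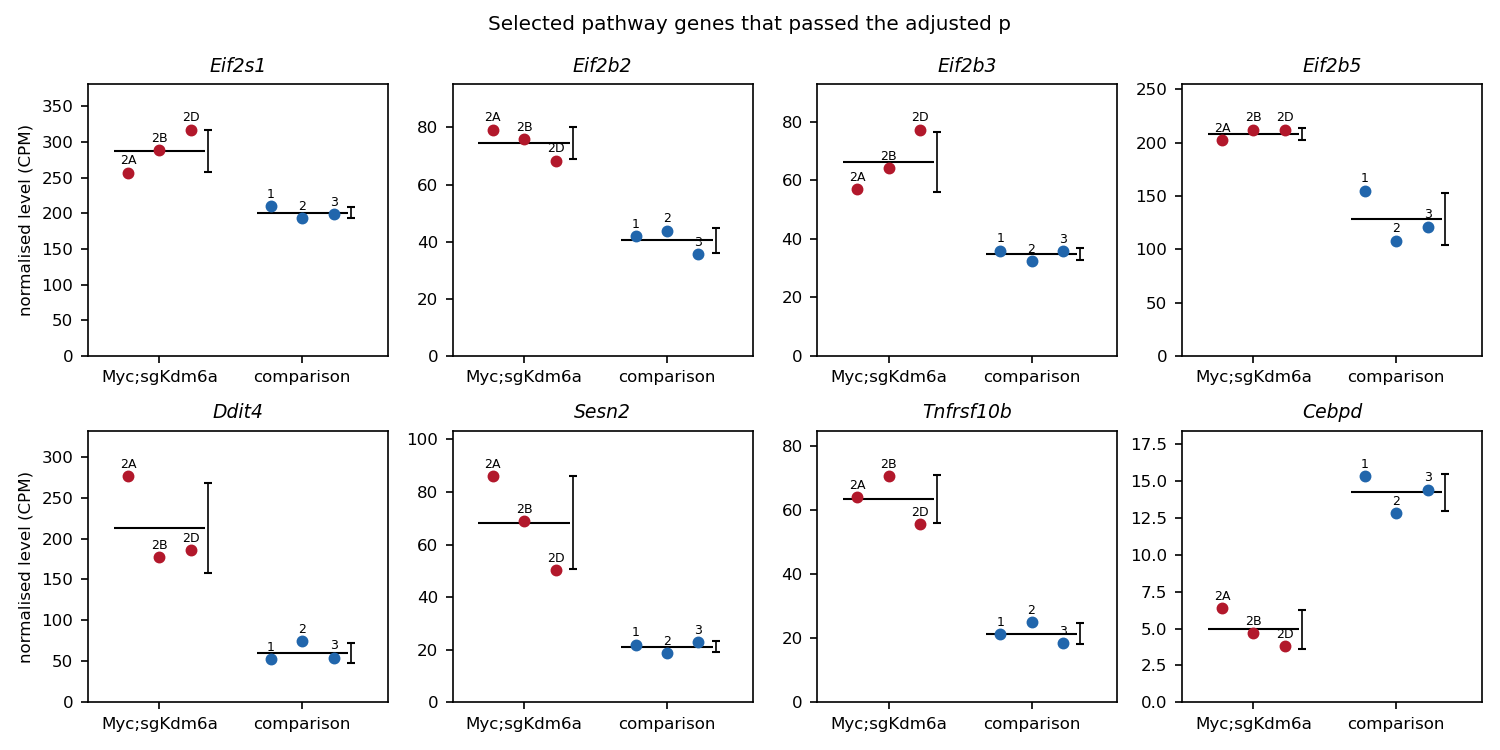
Normalised level (CPM, linear axis from 0) by cell line for 8 pathway genes past the adjusted p, red for Myc;sgKdm6a and blue for comparison lines, with the group mean as a line and the SD (n = 3) as a bar. The panels were chosen from called genes, and the groups do not overlap in any of them, as for 42% of all genes tested. Of the 8 shown, Cebpd alone is lower in Myc;sgKdm6a lines. Other called genes, among them Atf2 and Atf7, which were lower, are not shown.

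Among 11 other leucine zipper factors, 1 was called higher and 3 lower, against 6.99% and 7.69% of all genes. Nfe2l2, the oxidative stress factor NRF2, rose by 0.61 on the log2 scale (adjusted p = 0.0227). Cebpd, a relative of Cebpb, had 6.38, 4.68 and 3.79 CPM against 15.3, 12.8 and 14.4 CPM (log2 fold change -1.51, SE 0.28, adjusted p = 0.0242), in the direction opposite to the Cebpb estimate. Atf2 gave -0.64 (adjusted p = 0.0188) and Atf7 -0.63 (adjusted p = 0.0427). Cebpg, the constant C/EBP partner of ATF4, gave 0.01 (adjusted p = 0.975). None of these 4 calls remained without line 2A, 2B, 2D or comparison line 3, and 1 lower call was left with length offsets. Leaving out any of these lines left 3 to 63 genes called higher and 1 to 57 called lower over all genes.

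ER chaperones and folding factors answer to the ATF6 and XBP1 arms of ER stress. In a list of these with related genes such as Xbp1 and Ern1, 4 of 17 genes were called higher (23.5%, against 6.99% of all genes). None was called lower. The called genes were Sdf2l1 (1.13), Manf (0.70), Pdia4 (0.69) and Dnajb11 (0.66), and the median log2 fold change was 0.44. Hspa5, which encodes the main ER chaperone BiP, gave 0.26 (adjusted p = 0.421). The largest change in the list was that of Ern1, at -1.22 (adjusted p = 0.0579). Ern1 was called lower with DESeq2, with 10 counts required in every line and without comparison line 1. The count called higher was 2 with length offsets and 3 with total counts, where 691 and 601 of all genes were. It was 5 without a filter and 6 with DESeq2, where 695 and 1277 of all genes were. In this list 6 genes were called higher without comparison line 2, and none was called higher with line 2A, 2B or 2D or comparison line 1 or 3 left out. Over all genes, 836 were called higher without comparison line 2 and 481 without comparison line 1. Leaving out any of the other lines left 3 to 63 called higher.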

How the data were processed

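Total RNA of 6 liver tumour cell lines was sequenced. Per the labels, the authors used Trimmomatic 0.36, STAR 2.5.3a, featureCounts 1.6.3 and DESeq2 1.20.0 with GRCm38, and deposited raw counts per gene in 1 table; its coordinates equal GENCODE M21 for 96% of 53465 genes. The strand setting is not given in the sources used here. The RNA-seq methods name other tools and another guide, and the labels were followed. The gene targeted in the comparison lines is not reported here.

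Counts were tested with edgeR 4.0.16 in R 4.3.3 (filterByExpr, minimum count 10, TMM, quasi-likelihood test, Benjamini-Hochberg adjustment over 11510 genes). Normalised CPM were TMM-scaled. A common dispersion of 0.112 and 3 lines per group set the precision. DESeq2 1.42.0, other scalings and filters, length offsets and leaving out each line were alternatives. Scripts were tested on simulated data. No source used here ties the lines to mice, so p-values cover only the spread between these lines.

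Named genes were all 9 members, Kdm6a, the eIF2 kinases, Ppp1r15b, up to 5 called genes of each list with the largest change, members of small counts, defining markers, and the 3 genes nearest to Atf4 and Asns. Genes named beyond this rule, such as Cebpg, Hspa5 and Nupr1, were chosen after their values were seen. The members and lists were chosen with earlier results of these data known.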

Additional observations from a re-analysis of the deposited data

How the results depend on the processing

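The count of the 9 genes called lower was 0 under every alternative run, and the count called higher was 0 except with DESeq2 (1, Cebpb) and without comparison line 2 (1, Cebpb), so it ranged from 0 to 1 with each line left out. Of the other values of these genes, Chac1 alone changed sign, to 0.06 without line 2A and 0.18 without comparison line 3 (-0.51 to 0.18 with each line left out). ATF4 targets called higher numbered 3, with 5 under DESeq2 and 0 to 4 with each line left out. Targets called lower numbered 0, with 1 under DESeq2 and 0 to 3 with each line left out. Over all genes, 805 were called higher and 885 lower. DESeq2 called 1277 and 1572, length offsets left 589 lower, and total counts gave 601 higher and 1009 lower. Leaving out each line gave 3 to 836 higher and 1 to 1118 lower, with 3 and 1 without line 2A. Leaving out a line leaves fewer samples, and the cause of the other shifts was not tested. Over all genes tested, the median fold change (log2) was -0.012 with TMM, -0.235 without a filter and -0.264 with DESeq2. No paired analysis was possible because no replicate number occurs in both groups. Chac1 and Atf3 had the largest standard errors of the 9 genes (0.45 each), with means of 57.5 and 127 counts. Ddit3, with a mean of 58.5 counts, had a standard error of 0.27.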

Other observations

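Mitochondrial chaperones and proteases, which ATF5 is linked to, were called higher in 2 of 7 genes (28.6%, against 6.99% of all genes). Neither call remained without line 2A, 2B or 2D, where 3, 43 and 43 genes were called higher over all genes. Of the 2 calls, 1 was left with total counts, with length offsets, with 10 counts required in every line, or without any 1 comparison line. Hspe1 rose by 0.91 on the log2 scale (SE 0.11, adjusted p = 0.0141) and its partner Hspd1 by 0.57 (adjusted p = 0.0446), whereas Hspa9 gave 0.09 (adjusted p = 0.62) and Lonp1 -0.13 (adjusted p = 0.422). Atf5 itself missed the threshold.

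Among 13 immediate early genes, which are induced by handling and growth signals as Atf3 is, 1 was called higher. This share (7.69%) was close to the 6.99% of all genes. Klf4 had 168, 155 and 205 CPM in Myc;sgKdm6a lines and 66.1, 37.6 and 29.5 CPM in comparison lines (log2 fold change 1.99, SE 0.31, adjusted p = 0.0185). It was not called without line 2A, 2B, 2D or comparison line 3, runs that called 3 to 63 genes higher over all genes. The relatives of Trib3 and Chac1 were not called, with Trib2 at 1.38 (adjusted p = 0.0905), Trib1 at 0.05 (0.91) and Chac2 at 0.64 (0.182).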
